A study of Mus musculus with 2 samples.

Results

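The genes of the epidermal differentiation complex were examined on 2 Agilent arrays of the one-colour type, 1 with RNA of wild-type incisor tooth germ and 1 with RNA of *Sox21* KO tooth germ. The members were the genes whose name on the array begins with *Sprr*, *Lce* or *S100a* and a digit, together with *Lor*, *Ivl*, *Flg*, *Flg2*, *Rptn*, *Tchh*, *Tchhl1*, *Crnn*, *Hrnr* and *Crct1*. The rule found 54 genes of 21166 with a RefSeq symbol, namely 14 *S100a* genes, 13 *Sprr* genes, 17 *Lce* genes, 7 genes of the S100-fused type (*Flg*, *Flg2*, *Hrnr*, *Rptn*, *Tchh*, *Tchhl1* and *Crnn*), and *Lor*, *Ivl* and *Crct1*. Their 63 probes all lay on chromosome 3 in the coordinates of the files, chr3:90314959-93368496 of build mm9, a stretch of 3.05 Mb. The wild-type mice were C57BL/6J. The *Sox21* KO mice were a gift to the study, which credits them to the same earlier work as a line with GFP placed at the *Sox21* locus and shows GFP in its *Sox21*+/- mice. Their strain background and the number of animals behind each RNA are not given in the sources used here. The deposited labels give the age as postnatal day 0, whereas the study's methods give postnatal day 1. Whole tooth germ holds dental epithelium, mesenchyme and blood.

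The epidermal differentiation complex is a cluster of genes used in the last steps of keratinocyte maturation, when a cell replaces its membrane with a crosslinked protein shell, the cornified envelope. Loricrin, involucrin, the small proline-rich (SPRR) proteins and the late cornified envelope (LCE) proteins are substrates of transglutaminases and build this shell. The S100-fused proteins, such as filaggrin and trichohyalin, aggregate or crosslink keratin filaments in epidermis, tongue and hair. The S100A proteins are small calcium-binding proteins, many of which act well outside cornified tissue, in mesenchyme and in blood cells. Enamel epithelium shares its origin in the oral ectoderm with oral mucosa and skin, but it does not normally cornify. The comparison asked which of these genes were measured in tooth germ and which differed between the genotypes.

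Signals below are processed intensities with the scanner's own error, and a log2 ratio is *Sox21* KO minus wild-type after each array was divided by the 75th percentile of its signals, 268 for wild-type and 276 for *Sox21* KO. A gene took the value of its brightest probe and counted as measured when the scanner software marked that probe as well above background on each array, which is what above background means below. The error of a ratio is the error of the 2 spots, and repeat spots of the same probe had a median SD of 0.08 in their log2 ratio over 283 probes. Neither covers the spread between animals, so no difference here has a replicate check and no test was run. The deleted gene, *Sox21*, had signals of 1362 in wild-type and 659 in *Sox21* KO at the brighter of its 2 probes, a log2 ratio of -1.09, and 286 and 103 at the other, a log2 ratio of -1.51. Both probes were thus lower in *Sox21* KO but above background there, and whether they lie in the deleted part of the gene is not given in the sources used here. Defining markers of the labelled tissue were present, with 7 of 7 ameloblast markers and 4 of 4 odontoblast markers measured on both arrays.

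Of the 54 members, 26 were above background on both arrays, 4 on the *Sox21* KO array alone, 0 on the wild-type array alone and 24 on neither. Over all genes, 64.9% were measured on both arrays, 2.13% were above background in *Sox21* KO alone and 1.28% in wild-type alone, so that 0 of 54 members in the last class is near the share of all genes. Among the 26 measured members, 3 (*Sprr3*, *Lce3f* and *Lor*) had a *Sox21* KO signal at least 2-fold higher, against 0.742% of all measured genes, and 0 had one at least 2-fold lower, against 0.669%. With a model-based background correction that adds an offset, or with a signal of 100 required on both arrays, *Lor* alone was at least 2-fold higher. At 1.5-fold, *Sprr1a* and *Crct1* joined them, which made 5 members, against 3.20% of all. A further pair, *Flg* and *Sprr1b*, was above background on the *Sox21* KO array alone, with approximate bounds of 5.18-fold and 4.91-fold. For *Flg* this is the plain ratio to a wild-type signal not above background. In 11 of the 26 measured members the *Sox21* KO signal was higher by more than the scanner error, and in 2 it was lower by more than that error, whereas these shares were 17.9% and 16.0% over all measured genes. In whole tissue, fewer cells of a type and less RNA per cell cannot be told apart. Counted by sign alone, 14 of 26 members were higher, close to the 52.4% of all genes, and 20 of 26 with the arrays scaled to their medians, where 69.3% of all genes were higher. The median log2 ratio was 0.09 over the measured members and 0.01 over all genes.

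**Figure D1:**
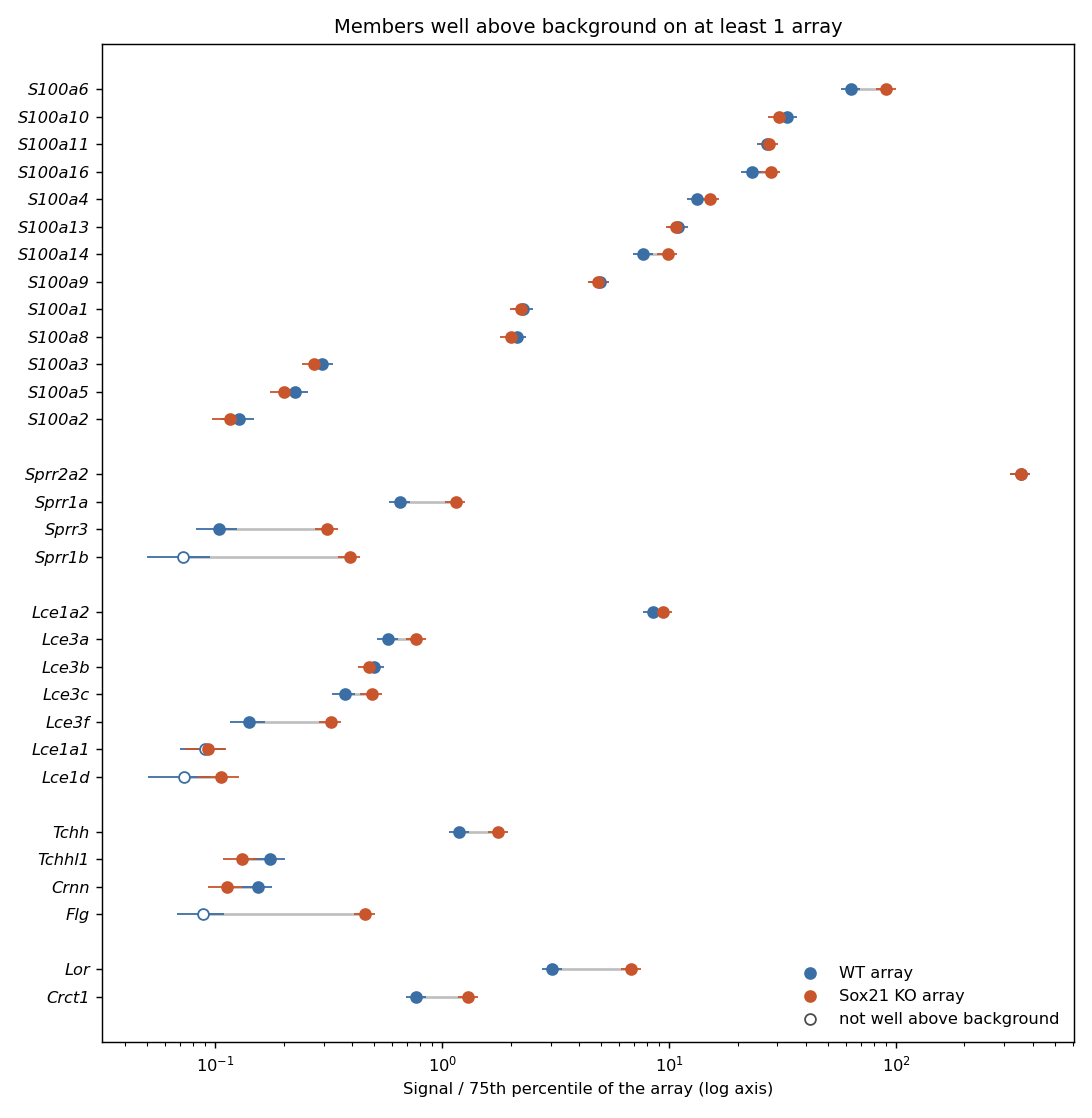
Signal of each member above background on at least 1 array, divided by the 75th percentile of its array (log axis), on the wild-type array (blue) and the *Sox21* KO array (orange), 1 array each. Horizontal bars are the scanner's error of the spot and open circles were not above background. Points should be compared within a row only, since probes differ in brightness for the same RNA. *Lor*, *Sprr1a*, *Sprr3*, *Lce3f* and *Crct1* lie apart between the arrays and 10 of the 13 *S100a* pairs lie within their error.

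The number of genes measured differed by family. Of the *S100a* genes, 13 of 14 were measured on both arrays, and *S100a7a*, the mouse relative of psoriasin, was on neither. Of the genes outside the *S100a* family, 13 of 40 were measured on both, and their median log2 ratio was 0.41, with 3 at least 2-fold higher and 9 of 13 higher by sign. The *S100a* family had a median log2 ratio of -0.03, with 5 of 13 higher by sign and 0 at least 2-fold apart. Over all measured genes the median was 0.01 and 52.4% were higher by sign. Median scaling adds the same shift to every gene and raised the median of all genes to 0.11, with 69.3% higher. The genes outside the *S100a* family then had a median of 0.51, with 11 of 13 higher, and the *S100a* family had 0.07, with 9 of 13 higher. The *S100a* median lay slightly below that of all genes, an order that a common shift cannot change. No test of the difference between the families was possible with 1 array per genotype.

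**Figure D2:**
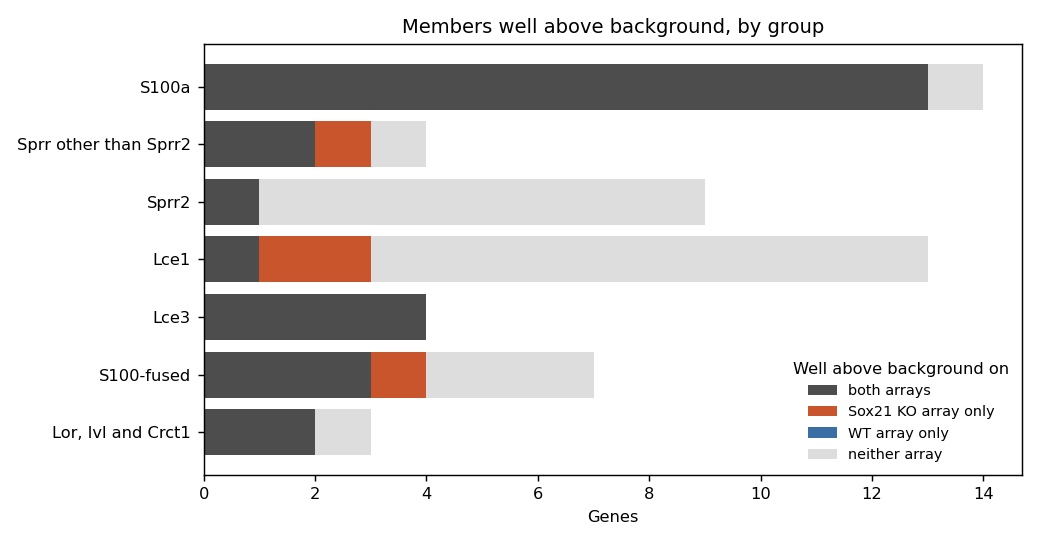
Number of member genes with a brightest probe above background on both arrays (dark), on the *Sox21* KO array only (orange), on the wild-type array only (blue) or on neither (light), in each group of members. The *S100a* and *Lce3* bars are nearly or wholly dark, the *Sprr2* and *Lce1* bars are mostly light, and no gene falls in the wild-type only class.

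Loricrin, the main protein of the epidermal cornified envelope, was higher in *Sox21* KO. The *Lor* signal was 819 ± 82.1 in wild-type and 1874 ± 187 in *Sox21* KO, and none of the 308 negative control spots reached either value. This is a log2 ratio of 1.15 with a scanner error of 0.20, or 2.22-fold. *Crct1*, which encodes a small cysteine-rich protein of the complex, had signals of 206 ± 21.2 and 359 ± 36.2, a log2 ratio of 0.76. Involucrin, an early envelope protein that scaffolds the others, was at background, with *Ivl* signals of 5.60 and 4.94 at the brighter of its 2 probes.

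The *Sprr* genes encode short proline-rich crosslinking proteins, with *Sprr1* and *Sprr3* known from oral and other internal stratified epithelia and from stressed skin. *Sprr3* had signals of 27.8 ± 5.73 in wild-type and 85.8 ± 9.77 in *Sox21* KO, a log2 ratio of 1.59 with an error of 0.34. *Sprr1a* had 175 ± 18.2 and 317 ± 32.0, a log2 ratio of 0.82 with an error of 0.21. *Sprr1b* had 19.3 ± 6.0, not above background, in wild-type and 108 ± 11.9 in *Sox21* KO. These 3 neighbours on the chromosome were all higher in *Sox21* KO, and the fourth gene outside the *Sprr2* group, *Sprr4*, was on neither array.

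Of the 9 *Sprr2* genes, 8 had signals between 4.38 and 5.39 in wild-type and between 4.02 and 5.03 in *Sox21* KO. All of these lay below the 95th percentile of the negative control spots, which was 5.99 and 5.39. The exception, *Sprr2a2*, had a probe at 94941 in wild-type and 97615 in *Sox21* KO, a log2 ratio of 0.00. The other two *Sprr2a2* probes had signals of 3.92 to 4.97. The bright probe shares unbroken runs of at least 20 bases with 6 other probes of the array, placed on 6 chromosomes, whose signals ran from 53518 to 116947 on the wild-type array. Its longest run in common, with a probe on chromosome 4, covers 31 bases, and the run of 24 bases shared with probes on chromosomes 12 and 14 is shown because it also stands in bright probes far from the *Sprr2* genes.
*Sprr2a2* shared run: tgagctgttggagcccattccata
The measured value of *Sprr2a2* was therefore kept in the counts but was not read as a level of this gene. Without it, the median log2 ratio of the *Sprr* genes was 1.20 over 2 genes in place of 0.82 over 3, and that of all members was 0.14 in place of 0.09.

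The *Lce* genes encode late envelope proteins rich in cysteine and glycine, and form the groups *Lce1*, used in normal skin, and *Lce3*, known for induction after barrier injury. All 4 *Lce3* members were measured on both arrays, but 1 of 13 *Lce1* members was. *Lce3f* had signals of 37.7 ± 6.61 in wild-type and 88.8 ± 10.1 in *Sox21* KO, a log2 ratio of 1.20 with an error of 0.30. *Lce3a* had 154 ± 16.0 and 211 ± 21.5, a log2 ratio of 0.41. *Lce3c* had 99.3 ± 11.5 and 135 ± 14.5, a log2 ratio of 0.40. All 3 were higher in *Sox21* KO by more than their scanner error. *Lce3b*, which lies between them, had 134 ± 14.3 and 132 ± 13.9, a log2 ratio of -0.07 within its error of 0.22. The probes of *Lce3b* and *Lce3c* are identical at 54 of 60 positions, and the run of 28 bases that they share is shown because such probes can take up RNA of both genes, which was not tested here.
*Lce3b* and *Lce3c* shared run: tcaagaaaagcccagctagtcttgtttt
A probe between *Lce3c* and *Lce3f* that carries the name of RIKEN cDNA 2310001H18, and not of an *Lce* gene, had 71.5 and 139, a log2 ratio of 0.92.

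Among the *Lce1* genes, *Lce1a2* was measured, with signals of 2277 ± 228 and 2583 ± 258, a log2 ratio of 0.14 within its error of 0.20. Its second probe had 287 and 294, a log2 ratio of 0.00, so both probes placed the gene near 0 while their brightness differed. *Lce1d* had 19.5 ± 5.96 and 29.0 ± 6.03, and *Lce1a1* had 24.1 ± 5.44 and 25.5 ± 5.20. In both, the *Sox21* KO spot alone was marked above background, but the pair of signals did not differ beyond the scanner error. *Lce1b* was spotted 10 times, at 5.10 to 13.1 in wild-type and 8.02 to 23.1 in *Sox21* KO, and 0 of these spots were well above background on either array. The remaining 9 *Lce1* genes were on neither array, with wild-type signals from 4.75 to 24.1.

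The S100-fused genes differed in direction. Filaggrin, which packs keratin filaments in the granular layer, was represented by the probe named *Flg* and by other probes that the files describe as filaggrin but list under transcript names, all of which hybridize to different stretches of the gene. The *Flg* probe had 23.7 ± 5.56, not above background, in wild-type and 126 ± 13.5 in *Sox21* KO. The second probe was above background on both arrays, with 28.8 ± 5.54 and 161 ± 16.7, a log2 ratio of 2.44 with an error of 0.32. The third had 50.8 ± 7.40 and 55.6 ± 7.50, a log2 ratio of 0.09 within its error of 0.29. Of the 3 filaggrin probes, 2 were thus over 5-fold higher in *Sox21* KO and 1 was not different beyond its error. The sequences of the last 2 probes are shown in lower case because they disagree and both read through without a stop codon in at least 1 frame, at chr3:93083694-93083753 and chr3:93088671-93088730 of mm9, plus strand.
Filaggrin probe A_52_P127877, log2 ratio 2.44: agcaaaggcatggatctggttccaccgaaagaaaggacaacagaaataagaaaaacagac
Filaggrin probe A_55_P2050415, log2 ratio 0.09: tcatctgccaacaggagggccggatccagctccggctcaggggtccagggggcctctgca

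Trichohyalin, a protein of the inner root sheath of hair and of tongue papillae, had *Tchh* signals of 319 ± 32.3 and 486 ± 48.9, a log2 ratio of 0.57 with an error of 0.21. A pair of other genes of this type had the opposite sign. *Tchhl1*, its close relative, had 46.7 ± 7.29 and 36.1 ± 6.14, a log2 ratio of -0.41 with an error of 0.33. *Crnn*, which encodes cornulin of the oesophageal and oral lining, had 41.2 ± 6.26 and 30.9 ± 5.36, a log2 ratio of -0.46 with an error of 0.33. These last 2 were the only measured members lower in *Sox21* KO by more than the scanner error, and both were dim. *Flg2*, *Hrnr* and *Rptn* were on neither array. The *Rptn* signal was 5.74 in wild-type and 26.2 in *Sox21* KO without being marked well above background, so no ratio was given.

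**Figure D3:**
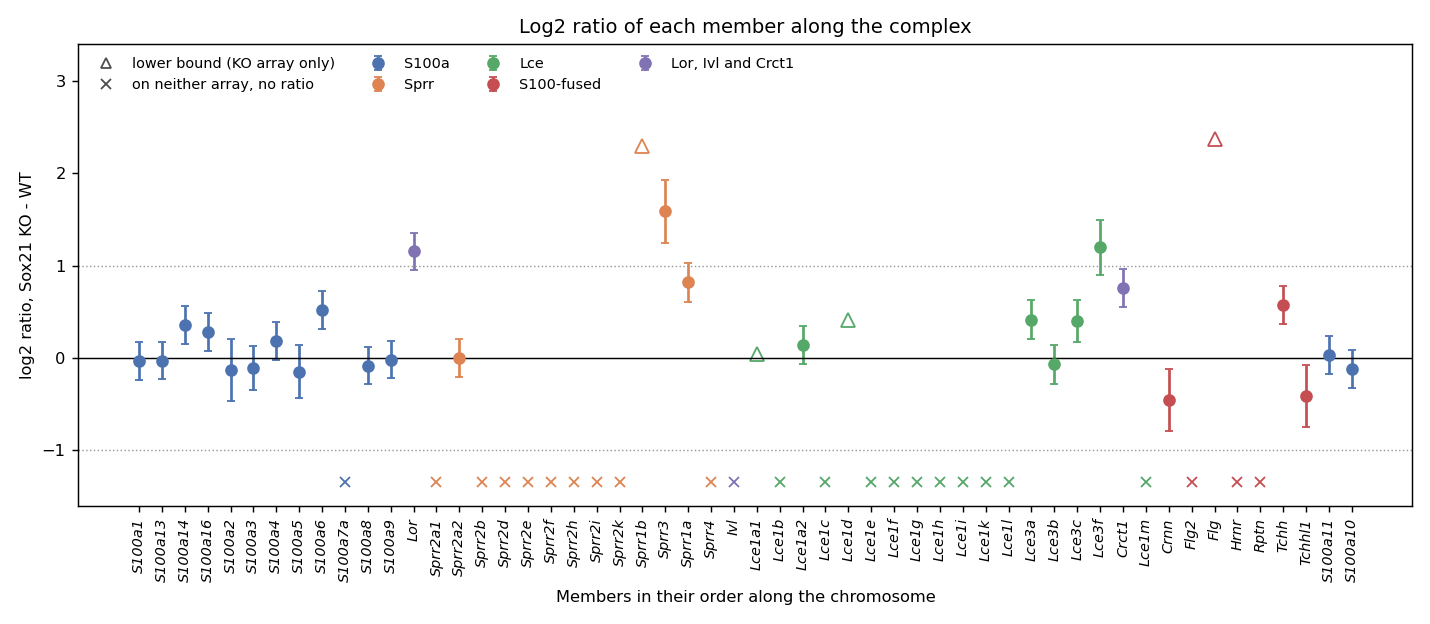
Log2 ratio of each member, *Sox21* KO minus wild-type, with members placed in their order along chromosome 3 and coloured by family. Bars are the scanner's error of the ratio. Open triangles are approximate lower bounds for genes above background on the *Sox21* KO array alone. Crosses at the foot of the plot are genes on neither array, and dotted lines mark a 2-fold difference. The *S100a* genes at both ends lie between -0.15 and 0.52, and the points above 1 (*Lor*, *Sprr3*, *Lce3f* and the bounds of *Sprr1b* and *Flg*) lie in the middle, where *Sprr1b* and *Sprr3* are next to each other.

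Differences among the *S100a* genes were small. *S100a6*, which encodes calcyclin of fibroblasts and epithelia, had signals of 16949 ± 1695 in wild-type and 24984 ± 2498 in *Sox21* KO. Its log2 ratio of 0.52, with an error of 0.20, was the highest of the family. Another pair was higher in *Sox21* KO by more than the scanner error. *S100a14* and *S100a16*, a neighbouring pair found in many epithelia, had log2 ratios of 0.36 and 0.28, with errors of 0.20, while the second probe of *S100a16* had 0.17. *S100a10*, the partner of annexin A2, had 8879 ± 888 and 8382 ± 838, a log2 ratio of -0.12. *S100a11*, which also binds annexins, had 7217 ± 722 and 7592 ± 759, a log2 ratio of 0.03. The other 8 measured members lay between -0.15 and 0.18, all within their scanner error. *S100a1* had 2 probes with log2 ratios of -0.04 and 0.13, and *S100a4*, of motile fibroblasts, had 0.18 at both.

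The subunits of calprotectin, *S100a8* and *S100a9*, are stored in neutrophils and are also made by stressed keratinocytes. *S100a8* had 569 ± 57.1 and 552 ± 55.4, a log2 ratio of -0.08, and *S100a9* had 1321 ± 132 and 1342 ± 134, a log2 ratio of -0.02. Neither differed beyond its error of 0.20. Of 15 neutrophil and monocyte markers with a probe, 8 were measured, with a median log2 ratio of -0.14 and 0 at least 2-fold apart, and the summed normalized level of all 15 was 200.2 in wild-type and 180 in *Sox21* KO. Most of this sum came from 2 probes, *Csf3r* with 131 and 116 and *Itgam* with 53.6 and 38.9, whereas *Mmp9* had a log2 ratio of 0.83. *Ngp*, *Ltf*, *Ctsg*, *Prtn3*, *Mmp8* and *Cxcr2* were on neither array. Of 8 macrophage markers with a probe, 7 were measured, with a median log2 ratio of 0.33, and the summed level of all 8 was 38.1 and 47.5. The part of blood cells in the *S100a8* and *S100a9* signals was not tested.

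Promoter sequences are shown for the members at least 2-fold higher, those with a bound above 2-fold, and *Sprr1a*, the third of the neighbouring *Sprr* genes. Each is the 250 bases before the RefSeq transcription start in assembly GRCm38.p6, written 5′ to 3′ on the strand of the gene, with the AP-1 motif TGANTCA (searched on both strands) and the TATA box TATAAA (searched on the strand of the gene) in capitals. AP-1, a dimer of Fos and Jun proteins, is a known activator of envelope genes in keratinocytes.
*Lor*, chr3:92083143-92083392, minus strand: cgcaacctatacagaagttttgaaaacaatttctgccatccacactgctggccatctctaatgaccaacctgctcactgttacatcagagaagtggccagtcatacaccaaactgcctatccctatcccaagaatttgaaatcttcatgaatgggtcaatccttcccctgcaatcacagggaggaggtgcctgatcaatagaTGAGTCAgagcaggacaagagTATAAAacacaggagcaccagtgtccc
*Sprr1b*, chr3:92438780-92439029, minus strand: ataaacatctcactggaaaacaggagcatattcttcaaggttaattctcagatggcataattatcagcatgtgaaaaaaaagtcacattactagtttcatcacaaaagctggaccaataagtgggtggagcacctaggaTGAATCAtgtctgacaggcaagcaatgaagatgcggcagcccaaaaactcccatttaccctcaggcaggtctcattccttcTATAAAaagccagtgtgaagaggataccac
*Sprr3*, chr3:92458721-92458970, minus strand: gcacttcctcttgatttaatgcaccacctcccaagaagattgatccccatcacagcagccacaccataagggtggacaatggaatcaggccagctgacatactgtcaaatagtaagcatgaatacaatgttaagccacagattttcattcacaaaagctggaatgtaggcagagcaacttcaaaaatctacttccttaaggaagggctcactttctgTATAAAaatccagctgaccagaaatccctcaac
*Sprr1a*, chr3:92485882-92486131, minus strand: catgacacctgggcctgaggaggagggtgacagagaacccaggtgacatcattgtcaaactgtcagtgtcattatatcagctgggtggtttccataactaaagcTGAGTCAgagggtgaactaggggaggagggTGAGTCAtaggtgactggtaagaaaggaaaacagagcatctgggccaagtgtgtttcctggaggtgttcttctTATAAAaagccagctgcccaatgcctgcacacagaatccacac
*Lce3f*, chr3:92991967-92992216, plus strand: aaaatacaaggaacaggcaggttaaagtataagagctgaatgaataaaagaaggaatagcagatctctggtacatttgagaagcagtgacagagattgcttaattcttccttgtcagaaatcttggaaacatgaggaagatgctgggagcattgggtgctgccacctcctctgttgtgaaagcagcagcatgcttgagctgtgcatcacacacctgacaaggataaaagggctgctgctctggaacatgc
*Flg*, chr3:93273296-93273545, plus strand: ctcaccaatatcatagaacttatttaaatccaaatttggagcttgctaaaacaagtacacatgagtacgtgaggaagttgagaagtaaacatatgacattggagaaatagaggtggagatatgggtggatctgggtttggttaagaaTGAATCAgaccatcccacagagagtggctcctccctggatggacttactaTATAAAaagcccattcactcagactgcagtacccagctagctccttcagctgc

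The motif TGANTCA stood in 4 of these 6 windows and the letters TATAAA in 5 of 6. *Lor* had 1 AP-1 motif that begins 48 bases before the start, *Sprr1a* had 2, *Sprr1b* and *Flg* had 1 each, and *Sprr3* and *Lce3f* had 0. In all, 49 of the 54 members had at least 1 promoter window, with 53 windows. TGANTCA stood in 9 of 13 *Sprr* windows, 5 of 7 S100-fused windows, 2 of 15 *S100a* windows and 0 of 16 *Lce* windows, against 6.75% of all 32851 windows of this length. TATAAA stood in 10 of 13 *Sprr* windows and 2 of 16 *Lce* windows, against 7.59% of all. The short core ACAAT that SOX factors bind, searched on both strands, stood in 17 of 53 member windows, or 32.1%, against 27.7% of all. By family it stood in 7 of 13 *Sprr* windows, 3 of 7 S100-fused windows, 3 of 15 *S100a* windows and 2 of 16 *Lce* windows. The core CACCC of KLF factors, also searched on both strands, stood in 27 of 53 member windows, or 50.9%, against 52.0% of all. The AP-1 letters did not separate measured from unmeasured members within the *Sprr* family, since *Sprr2b*, *Sprr2d*, *Sprr2e*, *Sprr2f*, *Sprr2h*, *Sprr2i* and *Sprr2k* also held them and were at background. A match of letters is a description and not a binding site.

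Partners of these genes outside the complex were described from lists of genes chosen for their role, with earlier results of these data known. The study's own table of genes changed in *Sox21* KO tooth germ already held *Spink5*, *Calm4* and *Eppk1* of this list. It also held *Krt1*, *Krt10*, *Krt6a*, *Krt6b*, *Krt13*, *Krt15*, *Krt32*, *Amtn* and *Klk4* of the lists below. Counts over these lists are thus not independent of those results. Of 25 listed crosslinkers and cornified envelope partners with a probe, 20 were measured, 14 were higher in *Sox21* KO, 8 were at least 2-fold higher and 0 were at least 2-fold lower, against 52.4%, 0.742% and 0.669% of all measured genes. Their median log2 ratio was 0.39. The highest was *Spink5*, an inhibitor of skin proteases, with signals of 181 and 762 and a log2 ratio of 2.03. *Calm4*, a skin calmodulin-like protein, had a log2 ratio of 1.82, *Eppk1*, epiplakin, 1.29, *Calml3*, an epithelial calmodulin-like protein, 1.24, *Asprv1*, the protease that processes filaggrin, 1.21, *Krtdap*, a secreted protein of maturing keratinocytes, 1.18, *Cdsn*, corneodesmosin, 1.08 and *Aloxe3*, a barrier lipid enzyme, 1.0. The transglutaminases that crosslink the envelope had smaller values, with log2 ratios of 0.28 for *Tgm1* and -0.07 for *Tgm3*, and *Tgm5* was on neither array. In 3 genes of the list the *Sox21* KO signal was lower by more than the scanner error. *Cst6*, a cystatin protease inhibitor, had 1492 and 864, a log2 ratio of -0.83, *St14*, the protease matriptase, had -0.58 and *Casp14*, a caspase of cornifying cells, had -0.25. *Aloxe3* lay at the threshold, and 7 of these genes stayed 2-fold higher when the percentile was taken over spots other than controls.

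Of 22 transcription factors known to act on envelope genes, 17 were measured, 11 were higher by sign, against 52.4% of all genes, and 1 was at least 2-fold higher, against 0.742%, with a median log2 ratio of 0.14. With median scaling 13 of 17 were higher, against 69.3% of all genes. That gene was *Foxn1*, of the hair and suprabasal epidermis, at 29.4 and 66.4 and a log2 ratio of 1.13. *Grhl3*, of the skin barrier, had 0.74. *Fosl1* and *Junb*, which encode AP-1 subunits, were above background on the *Sox21* KO array alone, with bounds of 1.51-fold and 1.79-fold. Of the brighter AP-1 subunits, *Jun* had 5930 and 5857, a log2 ratio of -0.06 within its error of 0.20, and *Fosl2* had 0.41. *Maf*, which acts late in keratinocyte maturation, had -0.65, and *Klf4*, of the skin barrier, had -0.03.

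Most measured markers of suprabasal epidermis and oral mucosa were higher in *Sox21* KO. Of 11 suprabasal epidermis markers, 9 were measured, 8 were higher and 4 were at least 2-fold higher, against 52.4% and 0.742% of all measured genes. With median scaling 8 of 9 were higher, against 69.3% of all. The median log2 ratio of these markers was 0.81, and the summed normalized level of all 11 was 12.4 in wild-type and 22.5 in *Sox21* KO. *Krt1*, an epidermal keratin, had a log2 ratio of 1.45, while *Krt2*, another, had 0.16 within its error of 0.21. *Casp14* was lower, as given above, and *Krt77* and *Dsc1* were on neither array. This list shares 7 genes with the list of envelope partners, so the pair are not independent. Of 8 oral mucosa markers, 5 were measured and all 5 were higher, against 52.4% of all measured genes, or 69.3% with median scaling. Their median was 0.77, and the summed level of all 8 was 22.5 and 44.0. *Krt6b* had 1.39 and *Krt6a* 1.28. *Krt4*, of the oral lining, was at 13.4, not above background, in wild-type and 171 in *Sox21* KO, with an approximate bound of 7.81-fold. *Krt76*, of the palate and gingiva, was on neither array.

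Basal epithelial genes, which dental epithelium shares with skin, had a median nearer to 0. Of 8 basal epithelium markers, 8 were measured, with a median log2 ratio of 0.15. Of these, 1 was at least 2-fold higher, *Krt15*, at 1.70, against 0.742% of all measured genes. Their summed normalized level was 701 and 825. Of the 7 ameloblast markers, 2 were at least 2-fold lower, *Amtn* at -1.89 and *Klk4* at -1.05, against 0.669% of all measured genes. The median of the 7 was -0.62. In 5 of the 7 the signal was lower by more than the scanner error, against 16.0% of all measured genes. In 1 it was higher by more than that error, against 17.9%. This was *Odam*, an enamel organ protein, with 9612 and 15331, a log2 ratio of 0.63 with an error of 0.20. *Amelx*, amelogenin, had 0.08, within its error of 0.20. *Enam*, enamelin, had -0.65, *Mmp20* had -0.62 and *Ambn* had -0.23. *Klk4* stayed lower but fell short of 2-fold with median scaling. The part that a different amount of oral lining or skin in either dissection may have in the values of *Lor*, *Sprr3*, *Sprr1b*, *Lce3f* and *Flg* was not tested.

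**Figure D4:**
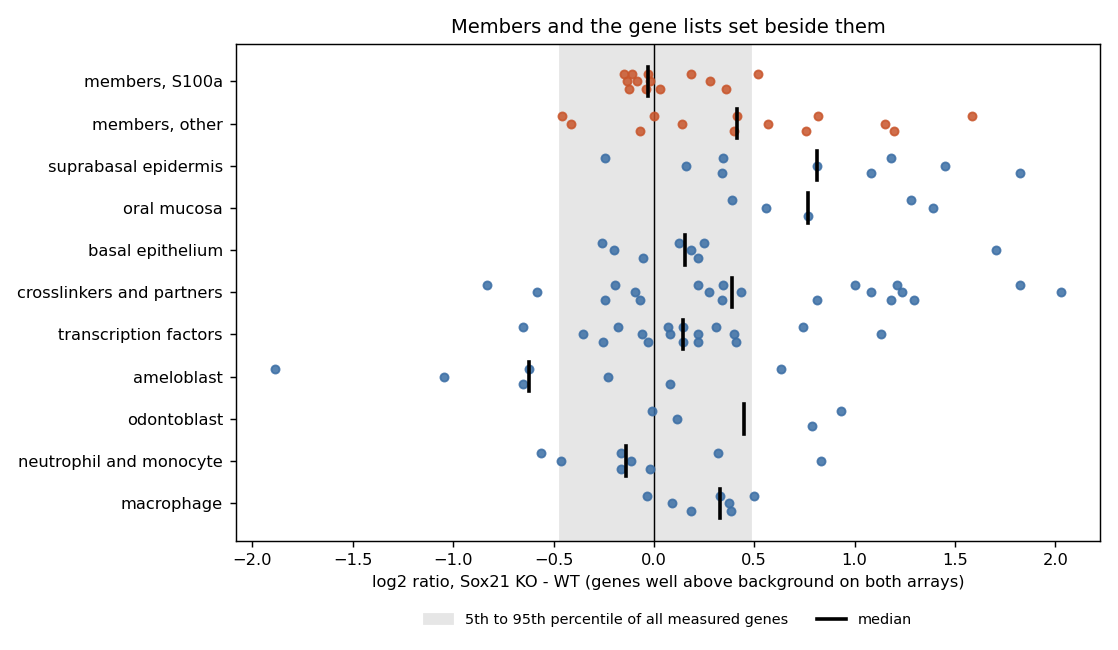
Log2 ratio, *Sox21* KO minus wild-type, of each gene measured on both arrays, for the members (orange) and for 9 gene lists (blue: suprabasal epidermis, oral mucosa, basal epithelium, envelope partners, transcription factors, ameloblast, odontoblast, neutrophil and monocyte, macrophage), with the median of each group as a black line. The grey band spans the 5th to 95th percentile of all measured genes, -0.47 to 0.48. The medians of the suprabasal markers (0.81) and the oral mucosa markers (0.77) lie furthest to the right and that of the ameloblast markers (-0.62) furthest to the left, and among the genes plotted the points furthest to the right are *Spink5* and *Calm4* of the envelope partners and *Krt15* of the basal epithelium.

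As given beside the first counts, the 2-fold calls of the dimmer genes depended on the background correction. With the model-based estimate in place of the scanner's subtraction, *Lor* kept a log2 ratio of 1.06, whereas *Sprr3* had 0.64 and *Lce3f* 0.54. The offset shrinks the ratios of dim spots by construction. The bounds of *Flg* and *Sprr1b*, which were dimmer still in wild-type, were not recomputed with it.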

How the data were processed

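Incisor tooth germ RNA was labelled with 1 dye and hybridized to Agilent SurePrint G3 Mouse GE 8x60K arrays, 1 per genotype. Per the file headers, Feature Extraction 10.7.3.1 subtracted background within each array, and the authors deposited the processed intensity and error of each spot with the raw intensities. A table of ratios that the authors deposited, each processed intensity over 1 number per array, served as an alternative. Here, intensities were divided by the 75th percentile of all 62976 spots of an array and log2 transformed, 267 outlier spots were left out, and spots of a probe were averaged. For a gene above background on 1 array, the fold against the dim value, raised to the lowest value marked well above background on its array where it was below that, is a bound. The bound is approximate, since it leaves out the scanner error and some spots not so marked exceeded that lowest value. Names and promoters came from RefSeq (GRCm38.p6), and of 36405 array names 18912 matched a current and 2254 an older symbol. Members and lists were chosen with earlier results of these data known. Signals are given for members at least 2-fold apart, with a bound, or among the 3 brightest of a family, and list genes could be named if at least 2-fold apart or among the 4 furthest from 0, with signals for some. Other genes were named after their values were seen. Steps were tested on simulated data. Python 3.11.15, numpy 2.4.6, pandas 2.3.3, biopython 1.88, matplotlib 3.10.9, R 4.3.3 and limma 3.58.1 were used.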

Additional observations from a re-analysis of the deposited data

How the results depend on the processing

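With 1 array per genotype, the number of arrays limits every value, and no array could be left out. No paired analysis was possible because 1 array per genotype makes a single pair, with no spread left to estimate. The count of measured members, 26, was 18 to 26 under 10 of 11 alternatives and 54 without the requirement of a signal well above background. The count at least 2-fold higher, 3, became 1 with normexp background correction, 1 when a signal of 100 was required on both arrays, 6 without the background requirement and 5 at a 1.5-fold threshold, where 3.20% of all measured genes passed. Without the background requirement, 23 members were higher, 2 were at least 2-fold lower, and the median log2 ratio was -0.048 over all members, -0.144 for *Sprr*, 0.141 for *Lce* and 0.206 for the S100-fused genes with *Lor*, *Ivl* and *Crct1*, where the scanner software writes substitute values for spots at background. Median scaling gave 0.182 over all measured members, 0.066 for *S100a*, 0.913 for *Sprr*, 0.493 for *Lce* and 0.663 for the S100-fused and other genes. The last 3 medians were 0.601, 0.203 and 0.430 with normexp, and 0.408, 0.141 and 0.759 with the minimum signal of 100, against 0.817, 0.397 and 0.567 as reported. Without *Sprr2a2*, an alternative chosen after seeing the data, the *Sprr* median was 1.20. Of the 26 measured members, 18 kept 1 sign under every alternative that measured them and 8, all within 0.15 of 0 as reported, did not.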

Other observations

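Between the outermost members, 48 other names on the array had a probe, of which 21 were measured on both arrays, 2 were on the *Sox21* KO array alone and 25 on neither. Their median log2 ratio was -0.01, 1 was at least 2-fold higher, the filaggrin probe described above, and 0 were at least 2-fold lower. Genes of the complex that its usual family names do not cover gave both directions. *Kprp*, a keratinocyte proline-rich protein, had signals of 7.48, not above background, in wild-type and 34.1 in *Sox21* KO, with an approximate bound of 1.55-fold. *Prr9*, a proline-rich gene, had 161 and 120, a log2 ratio of -0.46, and *Lelp1*, related to the late envelope proteins, had 111 and 110, a log2 ratio of -0.04. A probe described as *Lce1j* but listed under a transcript name had 422 and 485, a log2 ratio of 0.16.

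Outside chromosome 3, the list of S100 genes had 4 genes with a probe, of which 2 were measured. *S100b*, a marker of glia and cartilage, had a log2 ratio of 0.03, and *S100pbp*, a binding protein and not an S100 protein, had -0.75. Of 10 S100 receptors and partners, 9 were measured, with a median log2 ratio of 0.08 and 0 at least 2-fold apart. *Anxa2*, the partner of *S100a10*, had -0.03, and *Tlr4*, a receptor of calprotectin, had 29.3 and 58.5, a log2 ratio of 0.93, and was 2-fold higher with median scaling. The hair shaft markers had a median of 0.22 over 6 measured genes, of which 4 were higher, against 52.4% of all measured genes. *Krt32* was at 2.40, *Krt81* at 0.42, *Krt36* at 0.39, *Krt31* at 0.05, *Krt86* at -0.38 and *Padi3* at -0.50. The other 5 of 11, *Hoxc13*, *Krt33a*, *Krt34*, *Krt35* and *Krt83*, were on neither array. The medians were 0.45 over 4 odontoblast markers, 0.26 over 6 cartilage markers, -0.47 over 8 skeletal muscle markers, 0.22 over 10 mesenchyme markers and 0.02 over 5 Schwann cell markers (-0.01 with quantile normalization), and 0 genes of these 5 lists were at least 2-fold apart, while with median scaling 1 odontoblast marker, *Dmp1*, was.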
